A study of Mus musculus with 2 samples.

Results

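The genes described here are Kit, Cd14, Aldh1a3, Ltf, Trf and Wfdc18, read as chromatin accessibility in single nuclei. These 6 genes were chosen as luminal progenitor surface and marker genes of the mouse mammary gland. Every peak that overlapped one of these genes or lay within 50 kb of one of its transcription start sites (TSS) was counted as a member, which gave 168 of the 275294 regions obtained by merging the peaks of both libraries. Of these, 118 regions had a peak in both libraries (11 at Kit, 22 at Cd14, 25 at Aldh1a3, 23 at Ltf, 17 at Trf and 20 at Wfdc18), 33 had a peak in the DOX library alone and 17 in the EtOH library alone. Over all 275294 merged regions 63.5% had a peak in both. How the others divided between the libraries was not counted, so the 33 and 17 do not set these loci apart. In mm10 (GENCODE M21) Kit lies at chr5:75574916-75656722 on the plus strand, Cd14 at chr18:36725067-36726798 on the minus strand, Aldh1a3 at chr7:66390890-66427517 on the minus strand, Ltf at chr9:111019271-111042767 on the plus strand, Trf at chr9:103204001-103230444 on the minus strand and Wfdc18 at chr11:83709015-83711348 on the plus strand. Regions are numbered along the chromosome within each locus, so that Kit_1 is the first region of the Kit window. Accessibility is given as CPM, the counts of a region or group of regions per 1000000 counts of the same nuclei in all shared regions.

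The study asked how depletion of TRPS1, a repressor of the GATA family of transcription factors, alters accessible chromatin in mammary organoids. Both groups were organoids from C57BL/6J mice of the genotype shTRPS1.34 ki/+; CAG-rtTA3 tg/+, in which a CAG-driven rtTA3 switches on a turboGFP and Trps1 shRNA cassette in the Col1a1 locus once doxycycline is given. Organoids were grown in Matrigel with Neuregulin, Noggin and R-spondin and received doxycycline at 0.1 ug/ml (DOX) or ethanol (EtOH) for 7 days. The labels and the main account name shTrps1 mice, while 1 legend of the study names wild-type mice, and the sources differ on how many mice were used. Their cells were mixed, and 1 library of nuclei was made per group, so no value below has a replicate and no test between the conditions was possible. The intervals are 95% intervals that cover counting error only. Effects of the shRNA and of doxycycline itself cannot be told apart, and in a sum over nuclei fewer nuclei of a type and less accessibility per nucleus cannot be told apart. Since an shRNA acts on the transcript, accessibility at Trps1 is no check of the depletion. The Trps1 promoter held 40.4 CPM in DOX and 25.3 CPM in EtOH over all nuclei, and 29.2 and 22.6 CPM over the nuclei called epithelial below.

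Luminal progenitors are the cells of the inner mammary duct layer that can give rise to milk-secreting cells. Kit is the receptor tyrosine kinase for stem cell factor and Cd14 the co-receptor that presents lipopolysaccharide to Toll-like receptors, and both proteins serve as surface markers of luminal progenitors. Aldh1a3 oxidises retinaldehyde to retinoic acid. Ltf (lactoferrin) and Trf (transferrin) encode secreted proteins that bind iron, and Wfdc18 encodes a small secreted protein of the whey acidic protein family. Outside the epithelium, Cd14 is a classical surface marker of macrophages.

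Sequences are shown for the promoters and distal regions on which the results turn. They were chosen after their values had been seen. The promoters were taken from RefSeq (GRCm38.p6), whose table held entries for 3 of the 6 genes, and are printed from 250 bases before the RefSeq start to at most 30 bases into the first exon of the GENCODE annotation. The distal sequences are the central 300 bases of the region on the same build. Capitals mark the letters of 6 motifs searched on both strands. The motif of the GATA factors was searched as GATAAG and that of the ETS factors as AGGAAG. For AP-1 the letters were TGANTCA, and for the TEAD factors they were GGAATG. Forkhead factors were searched as TGTTTNC and RUNX factors as TGTGGT. Matches of different motifs were allowed to overlap. A match is a description of the letters and not a binding site.
Kit promoter (chr5:75574737-75574945, plus strand): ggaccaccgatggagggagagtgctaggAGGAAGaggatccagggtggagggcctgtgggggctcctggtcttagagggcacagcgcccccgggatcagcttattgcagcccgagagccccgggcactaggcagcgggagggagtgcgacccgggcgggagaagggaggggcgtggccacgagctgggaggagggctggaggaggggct
Ltf promoter (chr9:111019042-111019300, plus strand): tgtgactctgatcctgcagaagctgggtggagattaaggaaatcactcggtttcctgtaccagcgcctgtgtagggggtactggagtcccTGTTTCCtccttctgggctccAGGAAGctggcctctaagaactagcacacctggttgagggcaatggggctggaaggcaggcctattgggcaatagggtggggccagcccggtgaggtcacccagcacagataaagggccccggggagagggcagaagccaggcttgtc
Wfdc18 promoter (chr11:83708754-83709044, plus strand): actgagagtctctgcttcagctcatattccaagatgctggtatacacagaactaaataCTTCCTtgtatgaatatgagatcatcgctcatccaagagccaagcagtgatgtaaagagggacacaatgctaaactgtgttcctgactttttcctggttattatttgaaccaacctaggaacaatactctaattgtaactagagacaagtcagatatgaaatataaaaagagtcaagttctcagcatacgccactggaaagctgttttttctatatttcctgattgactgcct
Kit_4 (chr5:75545489-75545788, plus strand): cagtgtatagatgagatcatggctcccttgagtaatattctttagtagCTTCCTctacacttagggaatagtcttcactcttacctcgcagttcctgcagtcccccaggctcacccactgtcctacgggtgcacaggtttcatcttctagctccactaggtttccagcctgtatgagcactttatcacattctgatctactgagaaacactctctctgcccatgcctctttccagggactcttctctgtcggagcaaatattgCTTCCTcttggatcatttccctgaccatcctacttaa
Aldh1a3_25 (chr7:66450104-66450403, plus strand): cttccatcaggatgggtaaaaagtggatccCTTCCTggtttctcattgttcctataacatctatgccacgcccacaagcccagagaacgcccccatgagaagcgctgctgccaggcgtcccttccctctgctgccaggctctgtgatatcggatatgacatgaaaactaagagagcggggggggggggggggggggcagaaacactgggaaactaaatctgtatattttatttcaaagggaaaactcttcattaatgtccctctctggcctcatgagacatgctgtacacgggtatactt
Ltf_10 (chr9:111011869-111012168, plus strand): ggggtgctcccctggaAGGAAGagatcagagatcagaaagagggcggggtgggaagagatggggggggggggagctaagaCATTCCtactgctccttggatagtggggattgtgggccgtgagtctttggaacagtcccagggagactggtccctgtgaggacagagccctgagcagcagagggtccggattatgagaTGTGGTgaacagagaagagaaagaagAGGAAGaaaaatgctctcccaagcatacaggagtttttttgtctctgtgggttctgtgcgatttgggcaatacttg
Trf_18 (chr9:103252863-103253162, plus strand): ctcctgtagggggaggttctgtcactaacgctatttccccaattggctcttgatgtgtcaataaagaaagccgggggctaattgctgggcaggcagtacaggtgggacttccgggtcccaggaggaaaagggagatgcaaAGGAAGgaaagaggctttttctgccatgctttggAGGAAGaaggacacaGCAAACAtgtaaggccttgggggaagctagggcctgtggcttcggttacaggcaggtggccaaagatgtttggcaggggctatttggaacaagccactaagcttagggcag
Trf_20 (chr9:103262972-103263271, plus strand): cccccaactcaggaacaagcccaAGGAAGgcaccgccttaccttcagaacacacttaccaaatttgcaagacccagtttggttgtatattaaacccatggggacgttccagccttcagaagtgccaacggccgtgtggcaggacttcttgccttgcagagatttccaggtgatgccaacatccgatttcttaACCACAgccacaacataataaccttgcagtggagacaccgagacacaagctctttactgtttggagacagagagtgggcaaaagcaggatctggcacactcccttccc
Wfdc18_21 (chr11:83731125-83731424, plus strand): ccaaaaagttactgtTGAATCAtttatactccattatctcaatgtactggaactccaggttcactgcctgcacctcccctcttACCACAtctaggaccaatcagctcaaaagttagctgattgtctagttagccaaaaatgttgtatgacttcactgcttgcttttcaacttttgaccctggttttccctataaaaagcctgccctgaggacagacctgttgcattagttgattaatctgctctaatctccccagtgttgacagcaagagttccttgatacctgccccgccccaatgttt

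The Kit promoter held AGGAAG at base 29, and Kit_4, which lies 29.3 kb before the start of Kit, held its reverse complement at bases 49 and 264. Aldh1a3_25, 22.7 kb before the start of Aldh1a3, held the reverse complement of AGGAAG at base 31. The Wfdc18 promoter held the reverse complement of AGGAAG at base 59. In the Ltf promoter TGTTTNC matched at base 91 and AGGAAG at base 112. Ltf_10, 7.25 kb before the start of Ltf, held AGGAAG at bases 17 and 225, the reverse complement of GGAATG at base 81 and TGTGGT at base 199. Trf_18 lies in an intron and Trf_20 over a coding exon of 1300017J02Rik, the gene next to Trf, and they held AGGAAG at bases 141 and 175 and at base 24. The reverse complement of TGTTTNC matched at base 190 of Trf_18, and that of TGTGGT at base 193 of Trf_20. Wfdc18_21, 22.3 kb after the start of Wfdc18 and between that gene and Wfdc21, held TGANTCA at base 16 and the reverse complement of TGTGGT at base 84. None of the 9 printed sequences held GATAAG, the only form of the GATA motif searched. Looser forms were not searched, so a sequence without GATAAG may still hold one. Over the central 300 bases of the 118 shared regions of the 6 loci, GATAAG was found in 5 (4.24%), against 7.90% of all 174940 shared regions. AGGAAG was found in 71 of the 118 (60.2%), against 42.1% of all shared regions. The other motifs lay near their background, with TGANTCA in 18.6% against 20.9%, GGAATG in 21.2% against 20.2%, TGTTTNC in 27.1% against 27.6% and TGTGGT in 25.4% against 27.4%.

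The libraries held 3071 nuclei with 224762118 counts (DOX) and 3104 nuclei with 211963715 counts (EtOH), where the protocol aimed to recover 5000 nuclei. The median nucleus had 75195 counts in DOX and 66701 in EtOH, and 23 cell barcodes occurred in both libraries. Nuclei were called immune or epithelial from their counts at Ptprc, Csf1r and C1qb. Immune nuclei made up 44.0% of DOX (1351 of 3071, 95% Clopper-Pearson interval 42.2 to 45.8) and 14.2% of EtOH (441 of 3104, 13.0 to 15.5). Genes the separation had not used followed it. Tyrobp was 50.1-fold higher in immune than in epithelial nuclei in DOX and 80.6-fold higher in EtOH. Adgre1 was 15.8-fold and 19.9-fold higher and Lyz2 11.1-fold and 14.3-fold. Spi1 was only 3.19-fold and 2.50-fold higher, with 52.3 and 49.6 CPM left in epithelial nuclei. Krt18 was 7.82-fold and 2.51-fold lower, Krt8 4.15-fold and 1.98-fold, Epcam 3.35-fold and 1.99-fold, and Cdh1 2.96-fold and 1.75-fold. The EtOH immune class was less pure, since 174 of its 441 nuclei lay outside the immune-like cluster described next, against 113 of 1351 in DOX. Immune levels and ratios are therefore given for the 1238 DOX and 267 EtOH nuclei that were immune by both criteria, a rule added after the data had been seen, whereas shares of counts supplied by immune nuclei are over all 1351 or 441. The 8 immune marker genes used for naming clusters, which include the 3 loci of the separation, summed to 305.1 CPM in DOX and 119.8 CPM in EtOH over all nuclei, all 8 higher in DOX, and to 80.3 and 74.3 CPM over epithelial nuclei.

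Clustering on all other shared regions, with the member loci left out, gave 7 clusters. The luminal progenitor-like cluster 1 held 66 epithelial nuclei of DOX and 1658 of EtOH. Its luminal progenitor marker median was 0.52 on the log2 scale against all other nuclei, and its fibroblast median came next (0.36). Cluster 3, which could not be named from the markers, held 1436 and 21. The hormone-sensing luminal-like clusters 4 and 5 held 83 and 428, and 0 and 409. The basal-like cluster 6 held 64 and 120, and its fibroblast marker median (0.81 on the log2 scale against all other nuclei) was close to its basal median (0.94). Cluster 7 held few nuclei of low depth. Levels by cluster are given below for the 10 groups of 1 cluster and 1 library that held at least 50 nuclei, so cluster 7 and the 21 EtOH nuclei of cluster 3 are left out. In cluster 3 the luminal progenitor, hormone-sensing and basal marker medians were 0.46, 0.47 and 0.49 on the same scale. A cluster made almost wholly of 1 library may be that library rather than a cell type. Epithelial nuclei of DOX and EtOH were thus different mixtures of clusters, and every epithelial value below compares these mixtures. Their part in each result was not tested.

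Over all nuclei, the 6 genes differed in both directions. Promoter accessibility was lower in DOX for Kit (1.87-fold), Aldh1a3 (1.60-fold) and Wfdc18 (1.30-fold) and higher for Ltf (2.17-fold), Trf (1.56-fold) and Cd14 (1.40-fold). Immune nuclei supplied 58.7% of the DOX promoter counts of Cd14, 56.6% of those of Trf and 55.6% of those of Ltf, but 11.4% for Kit, 10.2% for Aldh1a3 and 6.74% for Wfdc18. Immune nuclei of the immune-like cluster alone supplied 57.4%, 54.9% and 53.7%, and 9.01%, 6.51% and 3.38%. Among epithelial nuclei alone all 6 differences were smaller, and that of Wfdc18 turned its sign. There Kit was 1.36-fold lower, Aldh1a3 1.14-fold lower, Ltf 2.04-fold higher, Trf 1.27-fold higher and Wfdc18 1.11-fold higher. Cd14 was 1.05-fold higher, with an interval of the log2 ratio that covered 0. For comparison, 0.930% of 16231 gene promoters were at least 2-fold higher in DOX in epithelial nuclei and 0.789% at least 2-fold lower, and the median promoter had a log2 ratio of 0.02.

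**Figure D1:**
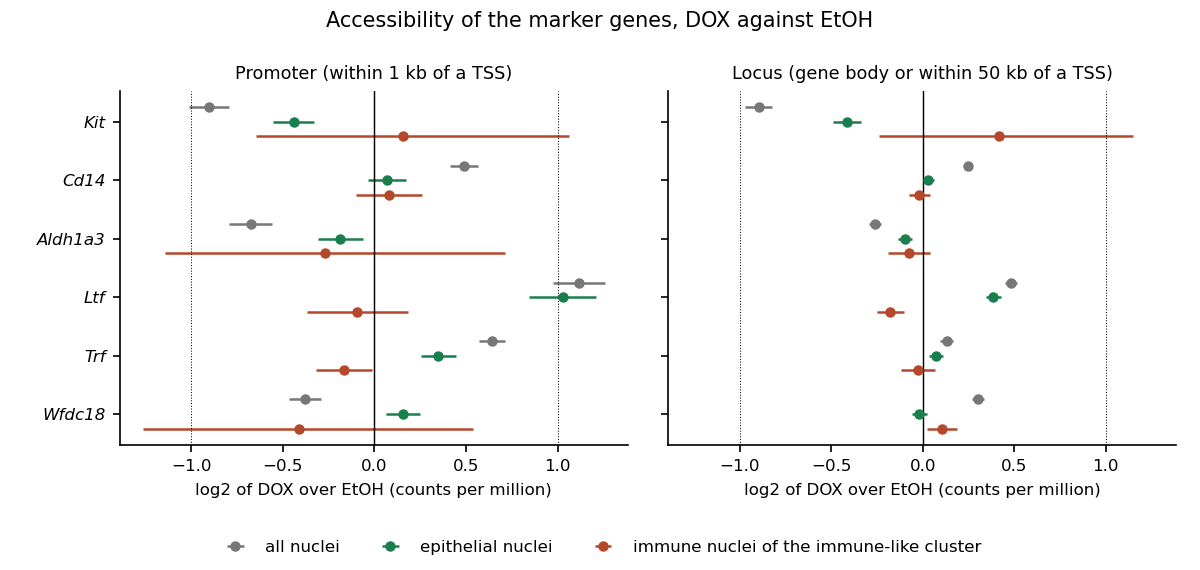
Log2 ratio of DOX over EtOH in CPM (x axis) for each gene (y axis), at its promoter (left) and over its whole locus (right), in all nuclei, epithelial nuclei and immune nuclei of the immune-like cluster. Points are the values of 1 library against 1, bars are 95% counting intervals, and dotted lines mark a 2-fold difference. Only the Ltf promoter lay past 2-fold in epithelial nuclei (1.03).

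Kit had the lowest DOX accessibility relative to EtOH of the 6 genes. In epithelial nuclei its promoter regions held 15.2 CPM (14.3 to 16.2) in DOX and 20.7 CPM (19.7 to 21.6) in EtOH, a log2 ratio of -0.44 (-0.56 to -0.33). The intervals of the levels did not overlap, and 3.99% of gene promoters had a lower ratio. Kit's locus sum (11 shared regions) gave -0.41 (-0.49 to -0.34). All 11 regions lay between -0.73 and 0.05. The lowest was Kit_6 (chr5:75574488-75575390), which covers the first exon, with 8.46 CPM in DOX and 14.02 CPM in EtOH. The highest was Kit_7, 1.08 kb after the start in the first intron, with 5.45 and 5.26 CPM, so the lower level at the start site was not seen in its neighbour. At Kit_4 epithelial nuclei held 4.19 and 6.59 CPM. Kit_15, at an internal start site 65.9 kb into the gene, held 1.31 and 1.39 CPM. Kit_16, at the same internal start, was a peak of DOX alone, with 65 counts.

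The level of Kit followed the luminal progenitor-like cluster. Its promoter held 30.8 CPM in cluster 1 of EtOH and 21.99 CPM in cluster 1 of DOX, whose intervals overlapped (29.3 to 32.3 and 15.5 to 30.2), then 16.5 CPM in cluster 3 of DOX (15.5 to 17.6). All other groups of at least 50 nuclei lay between 2.15 and 5.70 CPM, with immune nuclei lowest. Within cluster 1, where both libraries could be set side by side, the log2 ratio of Kit_6 was -0.64 (-1.30 to -0.05) from 46 counts in DOX and 2264 in EtOH. Kit_4 gave -0.69 in the same cluster, with an interval across 0 (-1.80 to 0.22), and 0.89 (0.11 to 1.64) in the hormone-sensing-like cluster 4. After thinning every nucleus to 10000 counts, 11.0% of epithelial nuclei had a count at the Kit promoter in DOX (177 of 1602, 9.55 to 12.7) and 16.5% in EtOH (422 of 2553, 15.1 to 18.0). Unthinned, the shares were 36.5% and 41.5%. Immune nuclei had 2.38% and 3.83% after thinning.

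Cd14 differed little between DOX and EtOH once immune nuclei were set apart. Its promoter held 21.5 CPM (20.3 to 22.7) in DOX and 20.5 CPM (19.5 to 21.4) in EtOH in epithelial nuclei, a log2 ratio of 0.07 (-0.03 to 0.17). In immune nuclei the promoter was about as accessible in both libraries and higher than in any epithelial cluster, at 46.2 CPM (44.2 to 48.4) in DOX and 43.8 CPM (38.9 to 49.1) in EtOH. Over all nuclei called immune by the 3 loci its log2 ratio was 0.37 (0.21 to 0.54). Among epithelial groups of at least 50 nuclei the levels ran from 17.9 CPM in cluster 6 of EtOH to 27.9 CPM in cluster 1 of DOX, and each neighbour in that order overlapped the next. Of the 26 regions in the Cd14 window, 9 lay at the promoter of another gene. The most counted was Cd14_21, at the promoter of Tmco6, with 37.0 and 35.4 CPM in epithelial nuclei. The 3 regions from 6.71 to 13.2 kb after the start of Cd14 (Cd14_13, Cd14_14 and Cd14_15) were 3.08-fold to 5.28-fold higher in DOX over all nuclei. At Cd14_15, which had the highest epithelial log2 ratio of the window (0.99, 0.39 to 1.60), epithelial nuclei held 0.91 and 0.46 CPM while immune nuclei held 26.6 CPM in DOX and 24.0 CPM in EtOH. The lowest epithelial ratio was that of Cd14_4 (-1.17, -1.84 to -0.55), at the promoter of E230025N22Rik, with 56 and 179 counts. No sequence of this locus is shown.

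Aldh1a3 was slightly less accessible at its promoter in DOX. In epithelial nuclei the promoter region Aldh1a3_18 held 14.2 CPM (13.3 to 15.2) in DOX and 16.2 CPM (15.4 to 17.0) in EtOH, a log2 ratio of -0.19 (-0.31 to -0.06). By cluster the 3 highest groups were those of Kit, with 20.5 CPM in cluster 1 of EtOH, 19.4 CPM in cluster 1 of DOX and 15.1 CPM in cluster 3 of DOX, and 1.60 and 1.93 CPM in immune nuclei. Hormone-sensing-like nuclei lay between, at 7.01 to 11.3 CPM. Upstream of the gene the most counted region, Aldh1a3_24, was 1.34-fold higher in DOX in epithelial nuclei, with 22.5 and 16.9 CPM. Its neighbour Aldh1a3_25, whose sequence is printed above, was 1.88-fold higher, with 7.84 and 4.17 CPM. Within cluster 4 the log2 ratio of Aldh1a3_25 was 0.99 (0.27 to 1.69), and within cluster 1 it was -0.05 (-1.38 to 1.02). Aldh1a3_24 did not pass counting error inside either cluster (0.18, -0.32 to 0.64 in cluster 1 and -0.19, -0.84 to 0.41 in cluster 4). Other upstream regions were lower in DOX, such as Aldh1a3_30, 50.2 kb before the start, with 7.23 and 11.9 CPM. Aldh1a3_12 and Aldh1a3_16, at internal start sites, were peaks of DOX alone.

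The 3 regions of the Aldh1a3 window that were at least 2-fold lower in epithelial nuclei of DOX all lay in introns of Lrrk1, 43.1 to 68.3 kb after the start of Aldh1a3. Aldh1a3_2 held 0.55 and 1.36 CPM, Aldh1a3_4 held 3.82 and 7.85 CPM and Aldh1a3_8 held 2.50 and 5.36 CPM. At Aldh1a3_4 the hormone-sensing-like clusters 4 and 5 of EtOH held 16.2 and 12.7 CPM and the basal-like cluster 6 of EtOH 16.7 CPM, against 3.40 CPM in cluster 1 of EtOH and 2.73 CPM in cluster 3 of DOX. Nuclei of the hormone-sensing-like clusters 4 and 5 made up 4.83% of epithelial nuclei in DOX and 31.4% in EtOH. The unnamed cluster 3, with a hormone-sensing marker median of 0.47, made up 83.5% in DOX and 0.789% in EtOH. Within cluster 4 the log2 ratio of Aldh1a3_4 was -0.26, with an interval across 0 (-0.74 to 0.18), and within cluster 6 it was -0.69 (-1.37 to -0.05). Aldh1a3_8 was lower in DOX inside both, with -0.61 (-1.26 to -0.01) in cluster 4 and -1.39 (-2.34 to -0.54) in cluster 6.

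Ltf had the highest ratio of DOX over EtOH of the 6 genes. In epithelial nuclei its promoter regions held 9.59 CPM (8.84 to 10.4) in DOX and 4.70 CPM (4.27 to 5.18) in EtOH, a log2 ratio of 1.03 (0.85 to 1.21), and 99.1% of gene promoters had a lower ratio. The difference sat at the first exon. Ltf_14 (chr9:111018786-111019697), which contains the printed promoter, held 7.14 CPM (6.49 to 7.83) in DOX and 1.88 CPM (1.61 to 2.19) in EtOH, a 3.79-fold difference. Ltf_17, at a start site 18.2 kb into the gene, was 1.28-fold lower, with 2.03 and 2.60 CPM. Ltf_15, at another internal start, held 0.42 and 0.22 CPM in epithelial nuclei and 8.94 and 10.5 CPM in immune nuclei. Ltf_16 was a peak of DOX alone. In immune nuclei the interval of the summed promoter's ratio covered 0 (-0.10, -0.37 to 0.18), and Ltf_14 held 1.12 CPM in DOX and 1.48 CPM in EtOH there.

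Ltf_10, whose sequence is printed above, was 2.13-fold higher in epithelial nuclei, with 33.2 CPM (31.8 to 34.6) in DOX and 15.6 CPM (14.8 to 16.4) in EtOH. The same direction was seen inside clusters that held both libraries, with log2 ratios of 0.63 (0.20 to 1.02) in cluster 1, 1.17 (0.51 to 1.81) in cluster 4 and 0.33 (-0.15 to 0.81) in cluster 6. Ltf_14 gave 0.84 (-0.50 to 1.93) in cluster 1 and 1.26 (-0.11 to 2.54) in cluster 4, where its counts were few. In cluster 6 it gave -2.13 (-7.61 to 0.80), from 2 counts in DOX and 15 in EtOH. Ltf_7, the most counted region of the window, held 36.7 and 24.4 CPM, a ratio of 0.59 (0.50 to 0.67). Ltf_18, 27.1 kb after the start, had the highest epithelial ratio (3.99-fold, 1.43 to 2.59 on the log2 scale), but its epithelial level was low (1.59 and 0.40 CPM) and 89.4% of its DOX counts came from immune nuclei, which held 20.5 and 25.1 CPM. Of the epithelial nuclei, 41 in DOX and 11 in EtOH lay in the immune-like cluster. Outside it, Ltf_18 held 1.52 CPM in cluster 3 of DOX and 0.32 CPM in cluster 1 of EtOH. At Ltf_24, where immune nuclei held more (54.6 and 63.7 CPM), epithelial nuclei held 1.02 and 1.30 CPM and the ratio was -0.36 (-0.83 to 0.09). The lowest of the window was Ltf_28, with a ratio of -0.62 (-0.95 to -0.30).

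After thinning, 9.11% of epithelial nuclei of DOX had a count at the Ltf promoter regions (146 of 1602, 7.75 to 10.6), against 4.00% of EtOH (102 of 2553, 3.27 to 4.83). The unthinned shares were 25.2% and 14.04%. Cluster 3 of DOX had 9.39% (128 of 1363) and cluster 1 of EtOH 2.51% (40 of 1595). By CPM the hormone-sensing-like cluster 4 held the same level of the summed Ltf promoter in DOX and EtOH (8.11 and 7.99), while cluster 3 of DOX held 10.1 CPM and cluster 1 of EtOH 3.10 CPM. In EtOH the Ltf promoter thus did not mark the luminal progenitor-like cluster 1 (2.65 to 3.61). It was higher in the hormone-sensing-like clusters 4 (6.62 to 9.55) and 5 (7.75 CPM, 6.41 to 9.29). Cluster 1 of DOX held 6.74 CPM (3.43 to 11.9), a log2 ratio of 1.12 (0.12 to 1.98) over cluster 1 of EtOH, from 23 and 334 counts. In cluster 6 the log2 ratio was -0.54 (-2.67 to 1.25), from 8 and 20 counts. By the thinned share, cluster 1 of DOX had 3.64%, from 2 of 55 nuclei (0.443 to 12.5), which was too few to place it.

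Trf was more accessible at its promoter in DOX, with differences in both directions upstream. The promoter regions held 27.5 CPM (26.2 to 28.8) in DOX and 21.6 CPM (20.6 to 22.6) in EtOH in epithelial nuclei, a log2 ratio of 0.35 (0.26 to 0.44). The first-exon region Trf_14, the most counted of the window and also at the promoter of the predicted gene Gm20425, was 1.34-fold higher, with 24.0 and 17.9 CPM. At internal start sites Trf_10 was 1.77-fold lower and Trf_11 1.61-fold higher, with 1.32 and 2.34 CPM and 2.22 and 1.38 CPM. Immune nuclei held the highest promoter level, at 53.9 CPM in DOX and 60.5 CPM in EtOH, a ratio of -0.17 (-0.32 to -0.01). The sign depended on the added rule, since over all nuclei called immune by the 3 loci the levels were 52.4 and 44.4 CPM and the ratio was 0.24 (0.10 to 0.38). Cluster 1 of EtOH, cluster 1 of DOX and cluster 3 of DOX did not differ beyond their intervals, at 28.6, 28.1 and 28.1 CPM, and hormone-sensing-like nuclei held 8.22 to 12.2 CPM. The basal-like cluster 6 held 30.8 CPM in DOX and 11.9 CPM in EtOH, a ratio of 1.37 (0.86 to 1.88) from 64 and 120 nuclei.

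Upstream of Trf, inside the neighbouring gene 1300017J02Rik, Trf_18 and Trf_20 differed in opposite directions. Trf_18 (22.6 kb before the start) was 2.22-fold higher in epithelial nuclei, with 18.1 CPM in DOX and 8.17 CPM in EtOH. Trf_20 (32.7 kb before the start) was 3.61-fold lower, with 0.96 CPM (0.73 to 1.23) and 3.46 CPM (3.09 to 3.87). Trf_21, 39.4 kb before the start, was 2.42-fold lower, with 0.66 and 1.60 CPM. Cluster 3 of DOX held 19.6 CPM at Trf_18 and 0.86 CPM at Trf_20, where cluster 1 of EtOH held 9.51 and 5.01 CPM. Inside cluster 1 neither difference passed counting error, with log2 ratios of 0.11 (-0.67 to 0.79) and -0.39 (-1.78 to 0.71). In cluster 6 Trf_18 gave 0.88 (0.23 to 1.53). Trf_16, also at least 2-fold lower in epithelial nuclei, held 0.19 and 0.44 CPM there and 6.70 and 7.27 CPM in immune nuclei.

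Wfdc18 had an accessible promoter in both libraries and a distal region that was accessible mainly in DOX. The promoter region Wfdc18_14 held 27.8 CPM (26.5 to 29.1) in DOX and 24.9 CPM (23.9 to 26.0) in EtOH in epithelial nuclei, a log2 ratio of 0.16 (0.06 to 0.25). Its levels by cluster were 38.8 CPM in cluster 1 of EtOH, 35.8 CPM in cluster 1 of DOX and 30.4 CPM in cluster 3 of DOX against 1.56 to 7.31 CPM in the other groups of at least 50 nuclei. Within cluster 4 the log2 ratio of Wfdc18_14 was 0.99 (0.13 to 1.80), from 39 counts in DOX and 81 in EtOH. In clusters 1 and 6 its intervals covered 0 (-0.12, -0.51 to 0.25, and -0.45, -1.45 to 0.47). After thinning, 29.6% of cluster 1 nuclei of EtOH had a count there, and 0.822% of immune nuclei of DOX.

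Wfdc18_21 (chr11:83730823-83731726) had the highest epithelial ratio of the 109 member regions tested, at 3.71 (3.26 to 4.19). Epithelial nuclei held 6.43 CPM (5.82 to 7.09) in DOX and 0.49 CPM (0.36 to 0.66) in EtOH, from 811 and 88 counts. In EtOH the region was near closed in cluster 1 (0.10 CPM) and in the basal-like cluster 6 (0.43 CPM) and was highest in the hormone-sensing-like cluster 4 (1.70 CPM). In DOX, cluster 3 held 6.93 CPM and cluster 4 held 7.70 CPM. Cluster 1 of DOX had no count there in 66 nuclei, so the upper bound of its log2 ratio was 4.92 and no lower bound could be given. Within cluster 4, 56 counts in DOX stood against 51 in EtOH, a log2 ratio of 2.18 (1.35 to 3.01). Immune nuclei held 0.32 and 0.30 CPM. The opposite case was Wfdc18_4, 43.0 kb before the start and nearest to the start of the chemokine gene Ccl4, with 4.66 CPM in DOX and 12.02 CPM in EtOH, a ratio of -1.37 (-1.56 to -1.18). There the hormone-sensing-like cluster 4 held 17.3 and 19.9 CPM, a ratio of -0.20 (-0.61 to 0.20), cluster 1 of EtOH held 10.1 CPM and cluster 3 of DOX 3.83 CPM. Within cluster 1 the ratio of Wfdc18_4 was -0.59, with an interval across 0 (-1.57 to 0.25). Immune nuclei went the other way, with 13.9 CPM in DOX and 8.01 CPM in EtOH, a ratio of 0.80 (0.39 to 1.23). The most counted region of the window was Wfdc18_32, at the promoter of Heatr6, with 24.9 and 24.6 CPM.

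**Figure D2:**
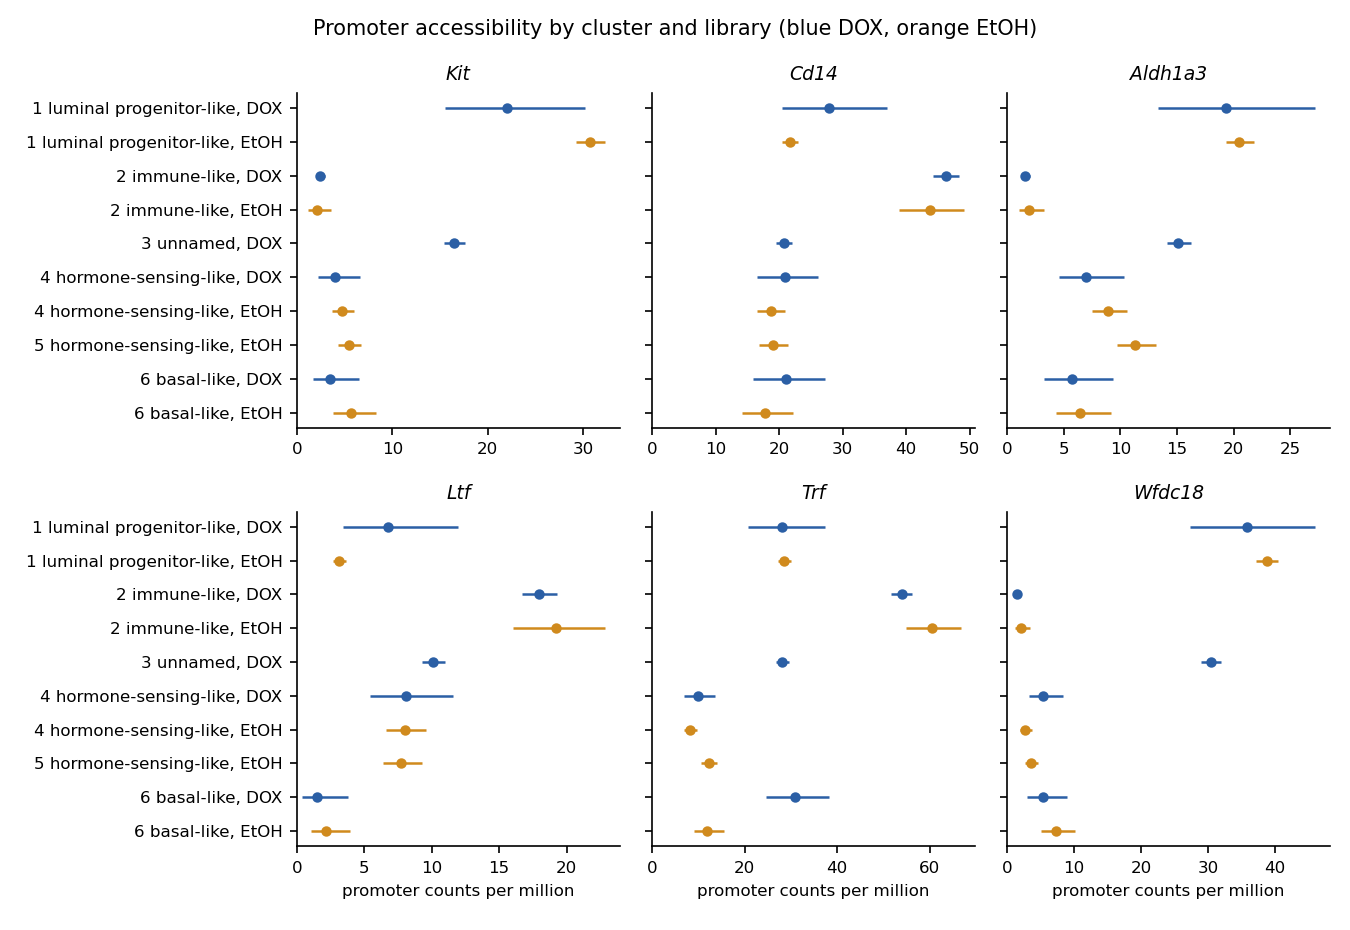
Promoter CPM (x axis) of the 6 genes in the 10 groups of at least 50 nuclei formed by cluster and library (y axis). Points are 1 library each, blue for DOX and orange for EtOH, and bars are 95% counting intervals. Kit, Aldh1a3 and Wfdc18 were highest in clusters 1 and 3, whereas Cd14, Ltf and Trf were highest in the immune-like cluster.

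Across these 10 groups, promoter levels of Kit and Wfdc18 varied together (Pearson's r of log2 CPM 0.95), as did Kit and Aldh1a3 (0.89), Wfdc18 and Aldh1a3 (0.83) and Cd14 and Trf (0.82). Kit and Cd14 gave -0.38. The groups share libraries and differ in depth, so these values are descriptions. Among 16286 genes compared, the promoters most like Kit were those of Zfp786 (0.98), Rgr (0.97) and Slc5a1 (0.96). For Cd14 they were Adamts13, Hook3 and Tut7 (each 0.99), for Aldh1a3 Tbcd, C1qtnf1 and Ckmt1 (each 0.99), and for Ltf Fbxo6, Pld2 and Mast2 (each 0.96). Among those most like Trf were Mettl4 (0.98) and Rab5b (0.97), and Wfdc18 was most like Sox10, Fmod and Lpcat3 (0.99, 0.98 and 0.98).

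Counted by region, 25 of the 118 shared regions were at least 2-fold higher in DOX over all nuclei and 9 at least 2-fold lower, which is 21.2% and 7.63%, against 13.0% and 13.4% of all 174772 shared regions with at least 100 counts. By window, 9 of the 25 lay at Ltf, 8 at Wfdc18, 4 at Cd14, 2 each at Aldh1a3 and Trf and 0 at Kit. The 9 lower regions were 3 at Aldh1a3, 3 at Trf, 2 at Kit and 1 at Wfdc18. A window also holds other genes. Of the 33 regions in the Wfdc18 window, 8 lay at the promoter of another gene. Among its higher regions, Wfdc18_2 and Wfdc18_3 overlapped exons of Ccl4 and Wfdc18_12 an exon of Wfdc17. Immune nuclei supplied over 50% of the DOX counts in 23 of the 25, with a median of 94.7%. This was not counted over all shared regions at least 2-fold higher, so it does not set the member loci apart. In epithelial nuclei, 16 of these 25 had enough counts, of which 3 were at least 2-fold higher there too (Ltf_14, Ltf_18 and Wfdc18_21) and 1 was at least 2-fold lower (Trf_16). The all-nuclei median over shared regions was itself shifted by -0.13 on the log2 scale. In epithelial nuclei, where that median was -0.05, 5 of 109 regions were 2-fold or more higher and 8 were 2-fold or more lower, against 5.70% and 8.23% of 168715 regions. The share of member regions past 2-fold (4.59% and 7.34%) was thus near that of all regions, and the median log2 ratio of the 109 was -0.06. The 5 higher regions were Wfdc18_21, Ltf_18, Ltf_14, Trf_18 and Ltf_10. The 8 lower ones were Trf_20, Wfdc18_4, Aldh1a3_2, Trf_21, Trf_16, Cd14_4, Aldh1a3_8 and Aldh1a3_4. In 6 of these 8 immune nuclei supplied over 50% of all DOX counts, which was likewise not counted over all lower regions. Kit had no region past 2-fold in epithelial nuclei, although all but 1 of its 11 regions lay below 0.

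**Figure D3:**
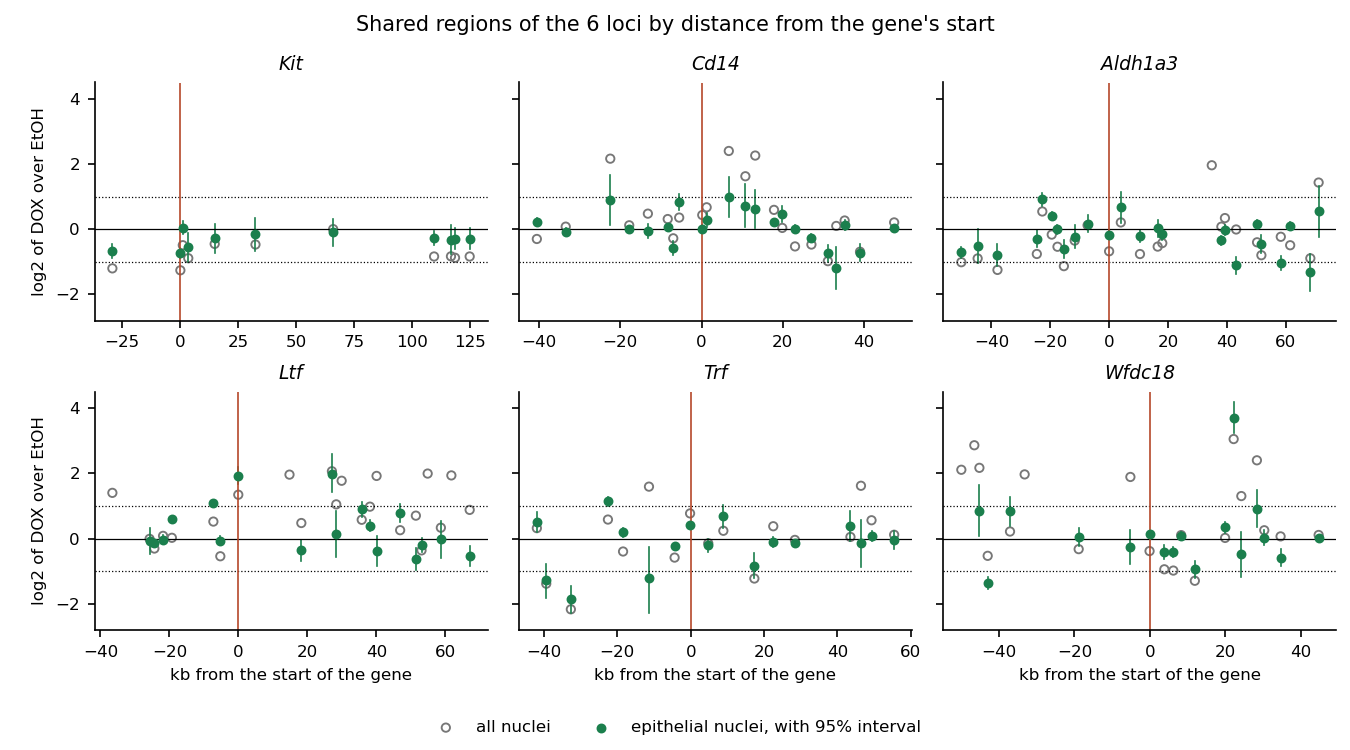
Log2 ratio of DOX over EtOH (y axis) of each shared region against its distance in kb from the start of the gene (x axis, positive into the gene), in all nuclei (grey circles) and in epithelial nuclei with at least 100 counts (green, with 95% counting intervals). Red lines mark the gene's start and dotted lines a 2-fold difference. Of the 25 grey circles above 2-fold, 16 have an epithelial point, with a median of 0.67, and Wfdc18_21 stands at 3.71.

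**Figure D4:**
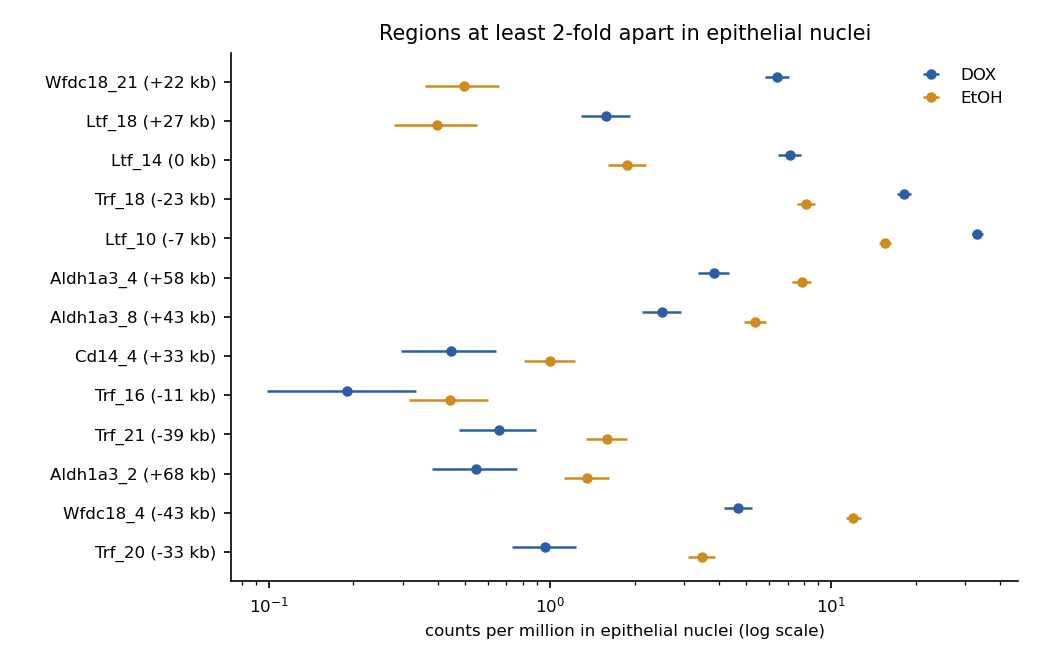
CPM in epithelial nuclei (x axis, log scale) of DOX (blue) and EtOH (orange) at the 13 member regions at least 2-fold apart, ordered by ratio, with their distance from the start of the named gene. Bars are 95% counting intervals of 1 library each. Ltf_10 and Trf_18 stand at 33.2 and 18.1 CPM in DOX, whereas Ltf_18, Trf_16, Trf_21, Cd14_4 and Aldh1a3_2 lie below 2 CPM in both libraries.

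The peaks found in 1 library alone differed by class of nuclei. Of the 33 regions with a peak in DOX alone, 28 had a higher level in immune than in epithelial nuclei. Of the 17 with a peak in EtOH alone, all were higher in epithelial nuclei. Immune nuclei made up 44.0% of DOX and 14.2% of EtOH. Whether all regions found in 1 library alone divide in the same way was not tested. These counts therefore describe the member loci and do not set them apart from other loci. The member regions found in 1 library alone were small. The DOX-only regions had 254 counts in the median region and the EtOH-only regions 248, against 1968.5 counts over both libraries in shared regions. The largest were Cd14_7 (1838 counts in DOX) and Wfdc18_27 (817 counts in EtOH). Such a region has no deposited count in the other library, so no ratio was formed.

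Of 50 other genes of the same pathways, all but 2 of the whey acidic protein family could be tested at the promoter. Stra6 and Tspan8 were at least 2-fold higher there in epithelial nuclei of DOX and none was at least 2-fold lower, beside 0.930% and 0.789% of 16231 gene promoters. Kitl, the ligand of Kit, gave -0.05 at its promoter (-0.14 to 0.03). Of 8 genes of lipopolysaccharide reception none passed 2-fold at the promoter, with a median of -0.03 and values from -0.13 (Ly96, the partner of Tlr4) to 0.63 (Lbp, the lipopolysaccharide-binding protein). Of 12 retinoic acid genes 1 was at least 2-fold higher and none lower, with a median of 0.14. It was Stra6, a retinol transporter, with 12.8 and 5.95 CPM (1.10, 0.94 to 1.26). Of 9 iron genes none passed 2-fold, from -0.16 (Hfe) to 0.12 (Lcn2, which binds iron-loaded siderophores). In the whey acidic protein family 6 of 8 genes could be tested and none passed 2-fold, from -0.82 (Wap, 2.16 and 3.81 CPM) to 0.24 (Slpi). Among 12 other luminal progenitor genes, Tspan8, a tetraspanin of the cell surface, was 1.01 higher on the log2 scale (16.5 and 8.19 CPM), none was at least 2-fold lower, the lowest was Ehf (-0.10) and the list's median was 0.11. Summed over whole loci, where 0.598% of 19913 genes were at least 2-fold higher and 0.316% lower, none of these 50 genes and none of the 6 members passed 2-fold.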

How the data were processed

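Nuclei of mouse mammary organoids were profiled by scATAC-Seq on the 10x Genomics platform, with 1 library per group. The authors processed the reads with Cell Ranger ATAC on mm10 and deposited, per library, a peak list and a matrix of counts of transposase cut sites per peak and nucleus. Version 2.0.0 is named in the file headers, and the study's methods name another. Peaks were called in each library separately. The 6 member genes and all lists were chosen with earlier results of these data known.

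Overlapping peaks of the libraries (minimum 1 bp) were merged, and 63.5% of the 275294 merged regions were shared. These held 94.7% of the counts of DOX and 94.8% of those of EtOH. Genes and start sites were taken from GENCODE M21 (mm10). Promoters were shared regions within 1 kb of a start site. CPM was formed over counts in shared regions. Log2 ratios carry exact conditional binomial 95% intervals, CPM exact Poisson intervals and shares exact Clopper-Pearson intervals. For intervals, counts were divided by 2, because a fragment often adds both of its cut sites to the same peak. Regions and genes with fewer than 100 counts over both libraries were not tested. Nuclei were divided by a Gaussian mixture with 2 components on log2 counts at 3 immune loci per 10000 counts, with a posterior of 0.5 as the threshold. They were clustered by latent semantic indexing (components 2 to 30, 15 neighbours) and Leiden at resolution 0.5, and clusters were named where the first marker list led by at least 0.1 on the log2 scale. The added requirement that immune nuclei lie in the immune-like cluster was chosen after seeing the data. Doublets were not called. For shares, nuclei were thinned to 10000 counts and 118 DOX and 110 EtOH epithelial nuclei of lower depth were left out.

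Regions were named by a rule: promoter regions, the most counted region and the highest and lowest epithelial ratio of each locus. Other named regions lay at least 2-fold apart or were named after their values were seen. The most alike genes were the 3 highest Pearson correlations of log2 promoter CPM (pseudocount 0.1) among genes with at least 200 promoter counts, of which 1 is not reported here. The ratio and interval code was tested on simulated data. Python 3.11.15, scipy 1.17.1, scikit-learn 1.9.0, igraph 0.11.9, leidenalg 0.10.2 and matplotlib 3.10.9 were used.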

Additional observations from a re-analysis of the deposited data

Results flagged for a closer look

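At 2 of the 6 genes the log2 ratio of DOX over EtOH had opposite signs in epithelial and immune nuclei, with both counting intervals clear of 0. Over the Ltf locus it was 0.39 (0.35 to 0.43) in epithelial nuclei and -0.18 (-0.25 to -0.10) in immune nuclei. At the Trf promoter it was 0.35 (0.26 to 0.44) in epithelial nuclei and -0.17 (-0.32 to -0.01) in immune nuclei. The opposite signs were seen in immune nuclei that also lay in the immune-like cluster, a rule chosen after seeing the data. Over all nuclei called immune by the 3 loci, the ratio was positive, at 0.11 (0.04 to 0.18) for the Ltf locus and 0.24 (0.10 to 0.38) for the Trf promoter. With 1 library per group the difference between the classes was not tested.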

How the results depend on the processing

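Of 60 alternative values of the epithelial locus ratios, 42 moved by less than counting error, as did 22 of 24 promoter values, and 23 of 32 counts stayed within 1.5 times the reported count. No called epithelial direction reversed. Among immune nuclei, 2 called directions reversed and 9 other values moved when the immune-like cluster, a requirement added after seeing the data, was dropped. At the promoter the immune ratio was then -1.05 at Kit, 0.37 at Cd14, -1.25 at Aldh1a3, 0.24 at Trf (reversed from -0.17) and -1.32 at Wfdc18. Over the locus it was -1.28 at Kit, 0.19 at Cd14, -0.32 at Aldh1a3, 0.11 at Ltf (reversed from -0.18), 0.13 at Trf and 0.37 at Wfdc18. With each nucleus thinned, the locus ratio was -0.66 at Kit, 0.060 at Cd14, -0.15 at Aldh1a3 and 0.019 at Trf. With 1 or 0 per region and nucleus it was -0.31 at Kit and 0.28 at Ltf. Centred on the median region it was 0.081 at Cd14, -0.047 at Aldh1a3, 0.44 at Ltf, 0.12 at Trf and 0.031 at Wfdc18, where the sign turned within an interval that covered 0. Within 25 kb it was 0.088 at Cd14, -0.017 at Aldh1a3, 0.45 at Ltf and 0.085 at Wfdc18. With library-only peaks included it was 0.082 at Cd14, -0.048 at Aldh1a3 and -0.10 at Wfdc18. Over regions that hold a start site the promoter ratio was -0.66 at Kit, where Kit_7 drops out, and 1.92 at Ltf, where Ltf_14 alone remains. At 1.5-fold, 24 regions were lower over all nuclei, and 19 were higher and 19 lower in epithelial nuclei. At 3-fold, 1 was lower over all nuclei, and 3 were higher and 1 lower in epithelial nuclei. Within 25 kb, 15 were higher and 4 lower over all nuclei, and 2 lower in epithelial nuclei. Fewer regions lie in the smaller window. For the ratios the cause of these moves was not tested. No paired analysis was possible because DOX and EtOH had 1 library apiece, and for the same reason no replicate could be left out. Depth limits the values within clusters 1, 4 and 6 of DOX, which held 66, 83 and 64 nuclei.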
